A study of Mus musculus with 11 samples.

Results

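The 35 genes described here encode proteins that carry a cell through G1, S phase and mitosis, and were followed as a readout of crypt proliferation in mouse small intestine. They were taken by gene symbol from a list of known cell cycle genes, and all 35 were found among the 24294 gene symbols of the FPKM table (fragments per kilobase of transcript and per unit of library total, a level corrected for gene length and depth). By role, 15 act in G1 and S phase, 16 act in mitosis, and 4 are general proliferation markers (Mki67, Top2a, Hmgb2 and Stmn1). RNA-seq was run on 11 libraries of mouse intestine: 3 of the group ND, 4 of the group HFD and 4 of the group HLJDD. The sources used here do not spell out ND and HFD. They name Huang Lian Jiedu Decoction, a herbal mixture from which HLJDD takes its name, and obese mice. The sources used here give no strain, sex, age, dose or duration, and do not state the diet of the HLJDD mice or which stretch of gut was taken. Nothing says whether each library came from its own animal, so the p-values measure a spread among libraries that may be technical.

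In the intestine, stem cells at the crypt base feed a zone of dividing progenitors, and cells stop dividing as they move onto the villus. D-type and E-type cyclins release E2F factors from retinoblastoma proteins, which starts the S phase genes. Cdc6 and Cdt1 then load the MCM2-7 helicase onto replication origins. Genes of mitosis are switched on later, by a complex of B-MYB and MuvB proteins and by FOXM1, at promoters that carry a CHR element and CCAAT boxes.

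In HFD against ND, 3 of the 35 genes fell and 0 rose: Ccnd1 (cyclin D1), Ccne1 (cyclin E1) and the helicase subunit Mcm4. Of all 10764 genes tested, 11.5% fell and 5.06% rose in that comparison, so a count of 3 of 35 was near the background. Their median difference was -0.57 on the log2(FPKM + 1) scale, against -0.20 over all genes tested, and 32 of 35 lay below 0. In HLJDD against ND, 2 of the 35 fell (Ccnd1 and Ccne1) and 0 rose, where 7.79% of all genes fell and 4.1% rose. In HLJDD against HFD, 0 of 35 passed the test, as did 0.0% of all genes in either direction. A call is a limma adjusted p (Benjamini-Hochberg, over all genes tested) under 0.05. The HFD and HLJDD comparisons with ND share the same 3 ND libraries.

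The deposited values are shifted between groups: the median over all genes is -0.20 in HFD against ND and -0.13 in HLJDD against ND. After median-ratio scaling, which brings these medians to -0.01 and 0.00, 8 of the 35 fell in HFD against ND, against 12.5% of all genes, and 0 rose, against 12.6%. The 8 were Ccnd1, Ccne1, Mcm4, Rrm2, Cdc6, Rrm1, Mcm7 and Mcm5. All 8 belong to the 15 G1 and S phase genes, and 0 of the 16 mitotic genes were among them. The difference between the G1 and S phase genes and the mitotic genes was not tested. On the scaled values the median was -0.59 for the G1 and S phase genes and -0.32 for the mitotic genes. HLJDD against ND gave the same 2 lower genes after scaling, with 9.88% of all genes lower.

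**Figure D1:**
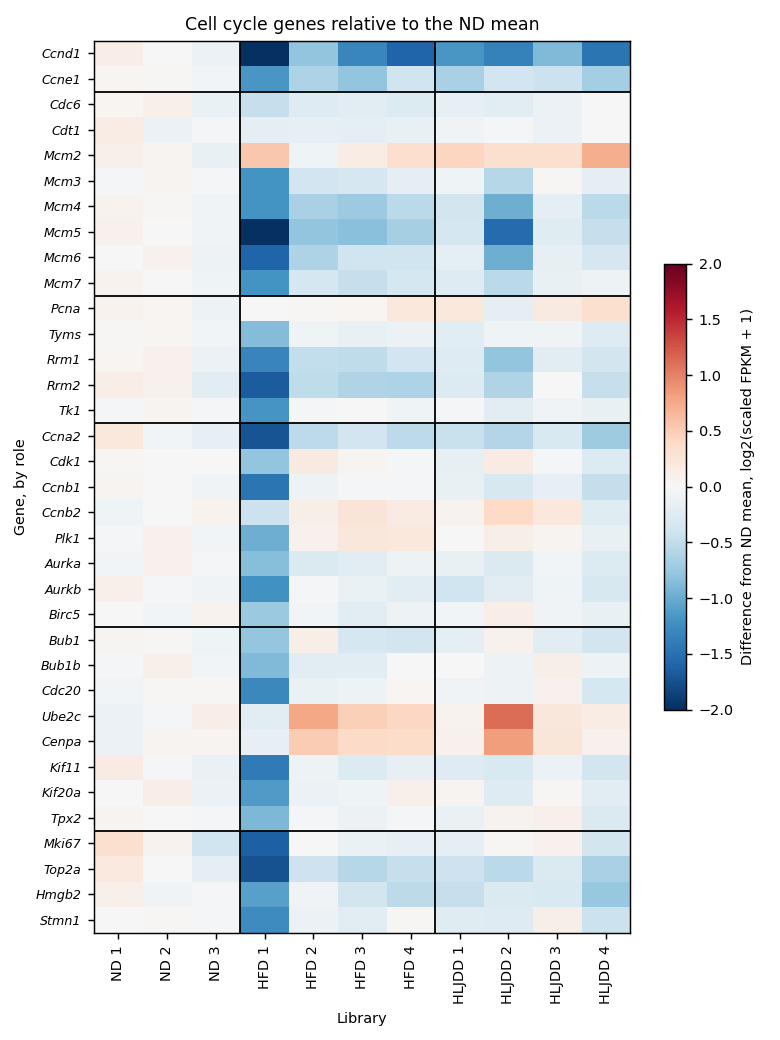
Each row is 1 of the 35 genes, in order of role with lines between roles, and each column 1 of the 11 libraries; colour is the difference from the ND mean in log2(median-ratio scaled FPKM + 1), from -2 (blue) to 2 (red). HFD 1 is blue in most rows, most G1 and S phase rows are blue in the other HFD libraries too, with Mcm2, Pcna and Tk1 excepted, and Mcm2, Ube2c and Cenpa are red in HFD 3, HFD 4 and HLJDD 2.

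One library stood apart. HFD replicate 1 was the lowest of the 11 libraries for 33 of the 35 genes, on deposited and on scaled values, where 38.7% of all genes were lowest there as deposited and 22.1% after scaling. Its level was a median 0.343 times the mean of the other 3 HFD libraries (0.450 times after scaling), from 0.181 times for Kif20a to 1.02 times for Mcm2. The exceptions were Mcm2 and Pcna. With HFD replicate 1 out of view, HLJDD replicate 2 was the lowest library for 24 of the 35 as deposited and for 10 after scaling. These same libraries had the highest mitochondrial share of reads, 32.4% in HFD replicate 1 and 40.7% in HLJDD replicate 2, against 10.4% to 19.3% in the other 9. They also had the highest summed scaled level of the immediate early genes, which many stimuli induce within minutes, at 505 and 509 against 198 to 336 in the other 9. Their summed scaled level of 9 smooth muscle genes, 229 and 257, was among the 3 lowest, with HLJDD replicate 4 at 231. The part of these differences in the results was not tested. Library totals ranged from 30101888 to 37943272 reads. With these 2 libraries left out, 14 of 35 fell and 1 rose in HFD against ND as deposited (background 21.7% lower and 9.41% higher). On scaled values without them, a combination added after seeing the data, 11 fell and 2 rose (background 14.0% lower and 13.5% higher), and 9 of the 11 were G1 and S phase genes.

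**Figure D2:**
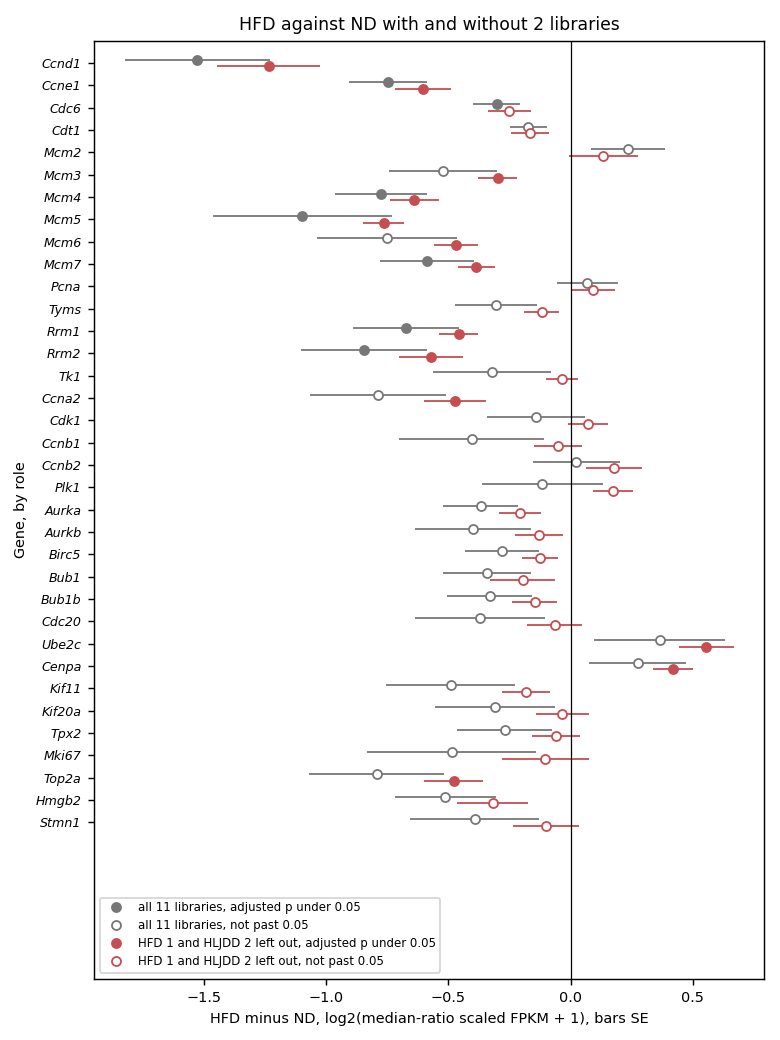
Points give the HFD minus ND difference of each of the 35 genes on log2(median-ratio scaled FPKM + 1), bars the standard error; grey is all 11 libraries, red leaves out HFD replicate 1 and HLJDD replicate 2, and filled points have a limma adjusted p under 0.05. In the red set 11 filled points lie below 0 and 2, Ube2c and Cenpa, above it.

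Promoters of the phases differ in their letters, and 6 are shown. They belong to the helicase genes Mcm5, Mcm6 and Mcm2, and to the mitotic or late genes Ube2c, Ccnb2 and Top2a. Not all of these genes differed in level. Ccnb2 was called in no comparison under any alternative, and Mcm2 was never called in HFD against ND. Sequences are from RefSeq, build GRCm38.p6, written 5′ to 3′ on the gene's strand. Capitals mark matches to any of 3 motifs, searched on both strands. The E2F site was spelled TTTCGCG in one form, TTTGGCG in another form and TTCCCGC in the last form. The CHR element was spelled TTTGAA in one form and TTCGAA in the other form, and the CCAAT box has only its own 5 letters. Overlapping matches form 1 run of capitals.
Mcm5: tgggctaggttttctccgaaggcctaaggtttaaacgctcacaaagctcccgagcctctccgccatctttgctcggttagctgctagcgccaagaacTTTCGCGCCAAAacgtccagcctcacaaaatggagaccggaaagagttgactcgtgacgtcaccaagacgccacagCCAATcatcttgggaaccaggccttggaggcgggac
Mcm6: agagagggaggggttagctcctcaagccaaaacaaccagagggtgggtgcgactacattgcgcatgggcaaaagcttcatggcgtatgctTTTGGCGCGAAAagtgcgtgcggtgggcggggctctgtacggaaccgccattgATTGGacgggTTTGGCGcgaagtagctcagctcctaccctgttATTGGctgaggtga
Mcm2: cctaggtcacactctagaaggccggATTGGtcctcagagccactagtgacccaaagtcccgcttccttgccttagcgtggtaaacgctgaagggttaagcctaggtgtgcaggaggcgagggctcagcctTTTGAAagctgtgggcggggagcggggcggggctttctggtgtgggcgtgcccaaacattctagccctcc
Ube2c: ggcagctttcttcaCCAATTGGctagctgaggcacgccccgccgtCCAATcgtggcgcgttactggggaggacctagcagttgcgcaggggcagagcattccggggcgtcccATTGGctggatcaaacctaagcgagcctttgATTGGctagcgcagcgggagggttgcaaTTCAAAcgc
Ccnb2: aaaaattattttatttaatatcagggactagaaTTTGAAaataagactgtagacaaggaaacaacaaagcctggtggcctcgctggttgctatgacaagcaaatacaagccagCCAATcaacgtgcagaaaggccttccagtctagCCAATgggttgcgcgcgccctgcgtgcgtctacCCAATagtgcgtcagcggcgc
Top2a: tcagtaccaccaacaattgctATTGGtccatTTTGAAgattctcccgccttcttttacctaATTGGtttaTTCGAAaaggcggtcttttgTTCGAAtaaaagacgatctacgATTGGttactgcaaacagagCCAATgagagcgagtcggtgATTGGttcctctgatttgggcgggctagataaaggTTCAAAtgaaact
The windows lie at chr8:75109259-75109467 (plus strand) for Mcm5, chr1:128359706-128359905 (minus) for Mcm6, chr6:88898781-88898980 (minus) for Mcm2, chr2:164769729-164769908 (plus) for Ube2c, chr9:70421555-70421754 (minus) for Ccnb2 and chr11:99024200-99024399 (minus) for Top2a. Each is upstream of the RefSeq start used by the promoter table; the last bases of the Ube2c window fall in an annotated first exon of that gene.

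The Mcm5 window holds 2 overlapping E2F matches and 1 CCAAT box, and the Mcm6 window 3 E2F matches and 2 CCAAT boxes. In the Mcm2 window there is no E2F match, 1 CHR match and 1 CCAAT box. Top2a carries 4 CHR matches among 5 CCAAT boxes, Ube2c 1 CHR match and 5 CCAAT boxes, and Ccnb2 1 CHR match and 3 CCAAT boxes. The printed windows are cut short, and some matches lie outside them. From 250 bases before to 50 after the start, Ccnb2 has 2 CHR matches. Mcm5 has 3 CCAAT boxes there, as many as Ccnb2, and Top2a and Ube2c have 6 each. Of the 35 genes, 28 had a promoter in the table, in 29 windows running from 250 bases before to 50 after the start. Ccnd1, Mcm4, Ccna2, Aurkb, Kif20a, Tpx2 and Stmn1 had none. An E2F match lay in 8 of 14 windows of the G1 and S phase genes (57.1%) and in 1 of 12 of the mitotic genes (8.33%), against 6.72% of all 32851 windows. For the CHR element the shares were 2 of 14 (14.3%), 10 of 12 (83.3%) and 19.2%. CCAAT boxes were in 9 of 14 (64.3%), 11 of 12 (91.7%) and 37.4%. These are counts of letters and show no binding.

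Cyclin D1 and cyclin E1, cyclins that drive entry from G1 into S phase, had the lowest adjusted p of the 35 in HFD against ND. Ccnd1 (GRCm38.p6 chr7:144929931-144939831, minus strand) stood at 30.2, 27.8 and 24.0 FPKM in the 3 ND libraries. It was 2.93, 13.8, 9.37 and 7.39 FPKM in HFD and 11.3, 6.87, 14.8 and 8.34 FPKM in HLJDD. Every HFD and every HLJDD library lay below every ND library. The group means were 27.4 ± 3.12 (SD, n = 3) in ND, 8.38 ± 4.53 (n = 4) in HFD and 10.3 ± 3.52 (n = 4) in HLJDD. Ccnd1 fell by 1.74 on the log2(FPKM + 1) scale in HFD against ND (SE 0.37, limma adjusted p = 0.0086) and by 1.37 in HLJDD against ND (SE 0.37, adjusted p = 0.032). The 2-sided exact permutation p was 0.0571 and 0.0286, where 0.0286 is the smallest that 3 against 4 libraries can give.

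Ccne1 (chr7:38097984-38107490, minus strand) was at 3.22, 3.22 and 2.79 FPKM in ND, at 0.514, 1.47, 1.18 and 1.84 in HFD and at 1.52, 1.43, 2.06 and 1.36 in HLJDD. Again no HFD or HLJDD library reached the ND range. The level rested on 32 to 231 reads a library. It fell by 0.89 in HFD against ND (SE 0.19, limma adjusted p = 0.0091) and by 0.66 in HLJDD against ND (SE 0.19, adjusted p = 0.043), with an exact permutation p of 0.0286 in both. The HFD calls of both cyclins held under every alternative that tested them, 25 for Ccnd1 and 24 for Ccne1. In HLJDD against ND the call of Ccnd1 was lost in 8 of 25 and that of Ccne1 in 14 of 24. Leaving out any 1 ND library, or HLJDD replicate 1, 2 or 4, ended both calls (adjusted p up to 0.134 for Ccnd1 and 0.157 for Ccne1). On the annotation, 23.4% of the exonic bases of Ccnd1 overlap exons of LTO1 on the opposite strand, which was at 2.29 to 3.67 FPKM, and whether counting used strand is not given in the sources used here.

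**Figure D3:**
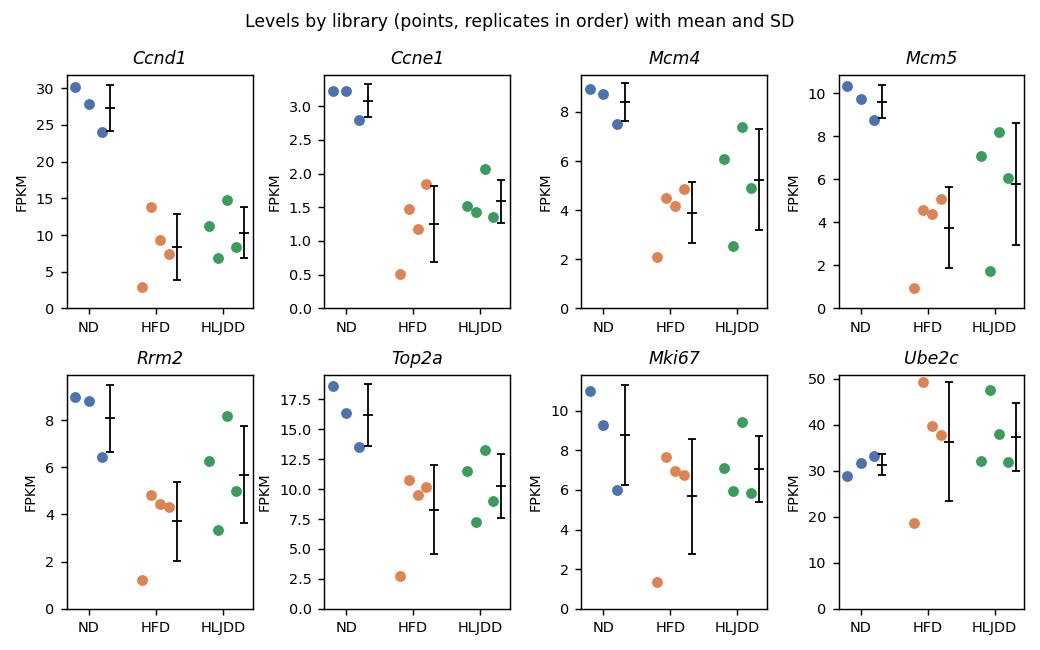
FPKM of 8 genes by library, with points in replicate order within ND (blue), HFD (orange) and HLJDD (green), and the group mean with SD as a black bar; each axis starts at 0. For Ccnd1 and Ccne1 all 8 HFD and HLJDD points lie under the 3 ND points, while for Ube2c the HFD points run from 18.6 to 49.3 around the ND points.

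Among the 8 genes of origin licensing, 1 fell in HFD against ND as deposited (Mcm4) and 4 after scaling (Mcm4, Cdc6, Mcm7 and Mcm5). Mcm4 (chr16:15623897-15637400, minus strand) stood at 8.94, 8.73 and 7.51 FPKM in ND, 2.10, 4.51, 4.16 and 4.84 in HFD and 6.09, 2.55, 7.39 and 4.91 in HLJDD. All HFD libraries were below ND, and HLJDD replicate 3 came closest to the ND range. The HFD minus ND difference was -0.98 (SE 0.28, limma adjusted p = 0.035), with a call lost in 8 of 25 alternatives, among them leaving out any 1 ND library or HFD replicate 1 or 3 (adjusted p up to 0.127).

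Mcm5, another helicase subunit, was at 10.3, 9.74 and 8.76 FPKM in ND, 0.958, 4.59, 4.40 and 5.07 in HFD and 7.07, 1.75, 8.2 and 6.06 in HLJDD. HFD replicate 1 and HLJDD replicate 2 lay lowest, and no HFD or HLJDD library reached ND. Its HFD minus ND difference was -1.28 (SE 0.43, limma adjusted p = 0.062) as deposited and -1.10 (adjusted p = 0.0495) after scaling. Without the 2 low libraries it was smaller, -0.76 on scaled values, and had a lower adjusted p of 0.000995.

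Mcm6 and Mcm7 complete the helicase genes named by the rule. Mcm6 was at 14.4, 15.4 and 12.6 FPKM in ND, 2.69, 8.0, 9.40 and 9.39 in HFD and 11.9, 4.50, 12.9 and 10.0 in HLJDD. Mcm7 was at 14.0, 13.6 and 11.8 in ND, 3.52, 9.07, 8.34 and 9.05 in HFD and 10.5, 5.95, 12.1 and 11.1 in HLJDD. For both, HFD lay below ND in every library, while HLJDD replicate 3 entered the ND range as deposited. The limma adjusted p of HFD against ND was 0.091 for Mcm6 and 0.072 for Mcm7 as deposited, and 0.076 and 0.046 after scaling. Cdc6, which loads the helicase, was low throughout at 1.63, 1.77 and 1.26 FPKM in ND, 0.564, 1.01, 1.04 and 0.981 in HFD and 1.22, 0.812, 1.39 and 1.39 in HLJDD, from 86 to 311 reads. HFD did not overlap ND, and HLJDD did. The Cdc6 difference of HFD from ND had a limma adjusted p of 0.065 as deposited and 0.043 after scaling (-0.30).

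Mcm2 did not follow the other subunits of its own complex, and is singled out after its values were seen. It was at 9.34, 9.16 and 7.32 FPKM in ND, 8.86, 7.28, 8.64 and 10.0 in HFD and 11.6, 7.49, 11.3 and 13.6 in HLJDD. The ND and HFD ranges overlap, and 3 of the 4 HLJDD libraries exceed all ND libraries. Within each library, the ratio of Mcm2 to the mean of Mcm3, Mcm4, Mcm5, Mcm6 and Mcm7 was 0.742 to 0.825 in ND, 1.13 to 1.41 in HFD replicates 2 to 4, 3.83 in HFD replicate 1 and 1.13 to 2.00 in HLJDD. So every HFD and HLJDD library had a higher ratio than every ND library, a measure chosen after the values were seen and given with no test. The difference of Mcm2 was 0.01 (SE 0.18, limma adjusted p = 0.96) in HFD against ND and 0.30 (adjusted p = 0.30) in HLJDD against ND. It passed the test in HLJDD against ND without the 2 low libraries, at 0.46 (adjusted p = 0.034), and at 0.49 after scaling too (adjusted p = 0.035). Cdt1, the other loading factor, and Mcm3 ranged from 4.96 to 9.48 and from 2.31 to 9.79 FPKM over the 11 libraries, with HFD below ND in every library and no call as deposited.

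**Figure D4:**
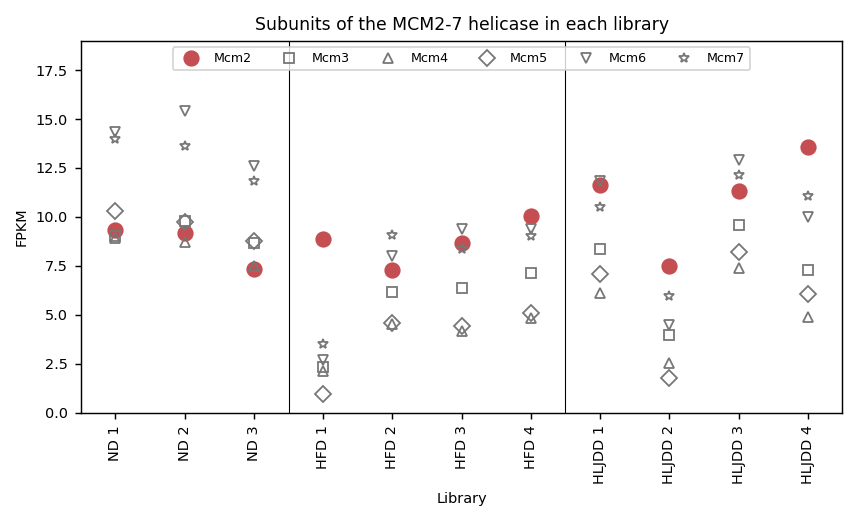
FPKM of the 6 subunits of the MCM2-7 helicase in each of the 11 libraries, with Mcm2 in red and the others as open grey symbols; lines divide ND, HFD and HLJDD. In ND, Mcm2 lies among the lower subunits, and in HFD 1, HFD 4, HLJDD 2 and HLJDD 4 it is the highest of the 6.

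In the group of 5 genes of DNA precursor supply and the replication clamp, 0 passed the test as deposited (2 at an unadjusted p under 0.05 in HFD against ND, and 0 called by limma-voom) and 2 fell in HFD after scaling, both subunits of ribonucleotide reductase, which makes deoxyribonucleotides. Of all genes tested, 36.7% lay under that unadjusted cut as deposited. Rrm2, the small subunit, was at 8.98, 8.81 and 6.42 FPKM in ND, 1.21, 4.84, 4.43 and 4.33 in HFD and 6.25, 3.32, 8.18 and 5.01 in HLJDD. HFD lay below ND in every library and HLJDD replicate 3 fell within the ND range. Its HFD minus ND difference was -1.03 (SE 0.33, limma adjusted p = 0.052), and -0.84 after scaling (adjusted p = 0.036). Rrm1, the large subunit, was at 13.2, 13.9 and 11.2 FPKM in ND, 3.04, 7.96, 7.79 and 8.53 in HFD and 10.2, 4.70, 11.2 and 8.72 in HLJDD. The groups ND and HFD again did not overlap. Its difference was -0.89 (SE 0.31, limma adjusted p = 0.069) as deposited and -0.67 after scaling (adjusted p = 0.043).

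Pcna, the sliding clamp of the replication fork, did not move with them: it was at 72.1 to 85.2 FPKM in ND, 55.2 to 84.0 in HFD and 48.2 to 94.4 in HLJDD, and its HFD minus ND difference was -0.17 as deposited and 0.07 after scaling. It was the most abundant of the 35 per length in every library. Tyms and Tk1, which supply thymidine nucleotides, were at 3.16 to 3.64 and 11.7 to 13.4 FPKM in ND and at 0.952 to 2.86 and 3.35 to 11.3 in HFD. Their limma adjusted p in HFD against ND was 0.14 and 0.23.

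None of the 16 mitotic genes passed the test in any of the 3 comparisons with all libraries, as deposited or median-ratio scaled, and limma-voom called 0. At an unadjusted p under 0.05 there were 4 in HFD against ND as deposited and 2 after scaling. Over all genes tested the shares under that cut were 36.7% and 40%. With library sums made equal without mitochondrial transcripts, Ccna2 and Aurka were called lower in HFD against ND. Ccna2 (cyclin A2, which acts in S phase and G2) had the lowest adjusted p of them. It was at 21.7, 18.3 and 15.8 FPKM in ND, 3.29, 11.4, 12.6 and 11.3 in HFD and 13.0, 8.21, 15.3 and 9.92 in HLJDD. All HFD and HLJDD libraries lay below ND. Its difference was -1.0 (SE 0.35, limma adjusted p = 0.069) in HFD against ND and -0.66 (adjusted p = 0.24) in HLJDD against ND. Without the 2 low libraries, on scaled values, it fell in both, by 0.47 (adjusted p = 0.026) and by 0.48 (adjusted p = 0.027). On the annotation, 12.5% of the exonic bases of Ccna2 are shared with Exosc9 on the opposite strand.

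The mitotic kinases and B-type cyclins were nearer to ND. Cdk1, the kinase that starts mitosis, was at 5.63 to 6.05 FPKM in ND and at 2.04, 6.23, 5.54 and 5.22 in HFD. Ccnb1 and Ccnb2, its cyclin partners, were at 7.73 to 8.91 and 12.8 to 14.0 in ND, and at 1.61 to 7.42 and 6.66 to 14.7 in HFD. Only HFD replicate 1 lay far under ND for Ccnb2 and Cdk1, while all HFD libraries lay under ND for Ccnb1. Without the 2 low libraries the scaled differences of HFD from ND were 0.07 for Cdk1, -0.05 for Ccnb1 and 0.18 for Ccnb2, with limma adjusted p of 0.54, 0.72 and 0.28. Plk1, Aurka, Aurkb and Birc5, kinases and a partner that guide the spindle and chromosome segregation, had adjusted p from 0.11 to 0.45 with all libraries as deposited. Every HFD library was below every ND library for Aurka on both scales, and without the 2 low libraries it fell by 0.33 as deposited (limma adjusted p = 0.048), with a difference of -0.21 on scaled values (adjusted p = 0.099).

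Ube2c and Cenpa were on the other side of 0, and are named after their values were seen. Ube2c, the ubiquitin-conjugating enzyme of the anaphase-promoting complex, was at 28.9, 31.8 and 33.3 FPKM in ND, 18.6, 49.3, 39.8 and 37.7 in HFD and 32.1, 47.5, 38.0 and 31.8 in HLJDD. Cenpa, the histone H3 variant of centromeres, was at 6.92, 8.09 and 7.6 in ND, 4.54, 10.2, 9.17 and 8.99 in HFD and 7.87, 9.83, 9.46 and 7.38 in HLJDD. In both genes HFD replicates 2 to 4 exceeded every ND library and HFD replicate 1 was under every one. With all libraries the HFD minus ND difference was 0.13 for Ube2c (limma adjusted p = 0.73) and 0.06 for Cenpa (adjusted p = 0.84). Without HFD replicate 1 and HLJDD replicate 2 and after scaling, both rose, by 0.56 (adjusted p = 0.0094) and 0.42 (adjusted p = 0.0080). Exons of Tnnc2 on the opposite strand cover 22.8% of the exonic bases of Ube2c, at 0.433 to 1.25 FPKM. The other 6 spindle and mitotic exit genes (Bub1, Bub1b, Cdc20, Kif11, Kif20a and Tpx2) had HFD minus ND differences from -0.67 to -0.43 as deposited and from -0.20 to -0.03 on scaled values without those libraries, with no call.

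Of the 4 proliferation markers, 0 passed the limma test with all libraries, as deposited or median-ratio scaled (2 at an unadjusted p under 0.05 in HFD against ND as deposited, and 0 called by limma-voom). Under that unadjusted cut lay 36.7% of all genes tested. With library sums made equal without mitochondrial transcripts, Top2a and Hmgb2 were called lower in HFD against ND. Top2a, the topoisomerase that untangles DNA in dividing cells, was at 18.7, 16.4 and 13.5 FPKM in ND, 2.78, 10.7, 9.48 and 10.2 in HFD and 11.5, 7.28, 13.3 and 9.01 in HLJDD. Neither HFD nor HLJDD overlapped ND. Its difference was -1.01 (SE 0.35, limma adjusted p = 0.066) in HFD against ND and -0.63 (adjusted p = 0.26) in HLJDD against ND. Without the 2 low libraries on scaled values it fell by 0.48 (adjusted p = 0.020) and by 0.45 (adjusted p = 0.027).

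Hmgb2, a chromatin protein of dividing cells, was at 60.5, 54.6 and 52.3 FPKM in ND, 17.6, 48.4, 38.6 and 34.7 in HFD and 39.2, 31.0, 46.4 and 29.7 in HLJDD. No HFD or HLJDD library reached ND. Its HFD minus ND difference was -0.75 (SE 0.28, limma adjusted p = 0.081). Mki67, which encodes the marker Ki-67, spread within ND itself, at 11, 9.30 and 6.0 FPKM, and was at 1.37, 7.66, 6.93 and 6.73 in HFD and 7.11, 5.93, 9.42 and 5.83 in HLJDD. Outside HFD replicate 1 its HFD range lay inside the ND range, and its difference was -0.68 (limma adjusted p = 0.21), or -0.10 (adjusted p = 0.69) on scaled values without the 2 low libraries. Stmn1, a regulator of microtubules, was at 58.1 to 64.7 FPKM in ND and 17.2 to 56.3 in HFD (adjusted p = 0.20).

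HFD libraries lay below all ND libraries for 25 of the 35 genes as deposited (32.9% of all genes) and for 15 after scaling (19.4%). No gene of the 35 had every HFD library above every ND library as deposited (9.57% of all genes). For HLJDD below ND the counts were 10 (21.3% of all genes) and 15 (18.9%). Every HLJDD library was above every ND library for 0 of the 35 as deposited (8.3% of all genes) and for 2 after scaling, Mcm2 and Cenpa (18.0% of all genes). HLJDD libraries lay above all HFD libraries for 0 of the 35 as deposited (0.483%) and for 2 after scaling, Cdc6 and Cdt1 (2.02%), and below all HFD libraries for 0 after scaling (1.66%).

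In HLJDD against HFD all 35 differences were above 0 as deposited and after scaling, with medians of 0.26 and 0.21, against 0.06 and 0.00 over all genes. None of the 35 had an unadjusted p under 0.05, where 186 of all 10764 genes did, and the lowest limma adjusted p among the 35 was 0.999; limma-voom on reads recovered from the FPKM called 0 too. The largest was Rrm2, at 0.55 (SE 0.31), followed by Mcm5 at 0.50 (SE 0.40). The picture differed without HFD replicate 1 and HLJDD replicate 2: 18 of the 35 scaled differences were below 0 and 17 above, with a median of -0.01. The 8 licensing genes all stayed above 0 there, with a median of 0.23 and 6 of 8 at an unadjusted p under 0.05, where 910 of all 10764 genes were, and 13 of the 16 mitotic genes were below 0. Still 0 of 35 were called (lowest adjusted p 0.458), and as deposited without those libraries 0 of 35 were called too, where 0.00929% of all genes were higher.

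Other genes of the cycle, from lists chosen with earlier results of these data known, are given as counts. Of 16 other G1 cyclins, kinases and E2F or retinoblastoma family genes tested, 2 fell and 0 rose in HFD against ND. That was near the background, where 11.5% of all genes fell and 5.06% rose. Their median was -0.18, near the -0.20 of all genes. E2f5 fell by 1.01 (limma adjusted p = 0.0035) and Tfdp1, a partner of the E2F factors, by 0.56 (adjusted p = 0.043). After scaling 2 fell and 2 rose, again near the background, where 12.5% of all genes fell and 12.6% rose. The other D-type and E-type cyclins are named after their values were seen. Ccnd2 was at 16.5, 14.8 and 13.4 FPKM in ND and 2.07, 8.63, 9.83 and 10.99 in HFD (-1.01, adjusted p = 0.098). Ccnd3 was at 7.61 to 8.27 FPKM in ND and 9.28 to 10.7 in HFD, above every ND library, with a difference of 0.26 (adjusted p = 0.18) as deposited and a rise of 0.48 (adjusted p = 0.011) after scaling. For Ccne2 the difference was -0.41 (adjusted p = 0.21).

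Of 38 other S phase genes tested, 11 fell in HFD against ND, where 11.5% of all genes fell, with a median of -0.60, and in HLJDD against ND 0 fell (8 in either direction at an unadjusted p under 0.05 with limma, and 0 fell with limma-voom). In HLJDD against ND, 28.8% of all genes lay under that unadjusted cut. E2f2, Mcm10 and Lig1 had the lowest adjusted p, with differences of -1.0, -0.75 and -1.09 (limma adjusted p 0.0029, 0.0082 and 0.016). E2f1, a factor that switches on S phase genes, was at 1.54, 2.06 and 1.36 FPKM in ND and 0.405, 0.803, 0.856 and 1.07 in HFD (-0.58, adjusted p = 0.047).

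Of 42 other mitosis genes tested, 5 fell and 0 rose in HFD against ND, a share near the 11.5% of all genes that fell, with a median of -0.50 (2 fell with limma-voom), and 0 passed in HLJDD against ND (7 at an unadjusted p under 0.05, where 28.8% of all genes were). Mybl2, which encodes B-MYB, fell by 0.94 in HFD (limma adjusted p = 0.0086). Foxm1, its partner in switching on mitosis genes, was at 1.82 to 2.33 FPKM in ND and 0.439 to 1.47 in HFD (-0.54, adjusted p = 0.083). Among 6 inhibitors of cyclin-dependent kinases tested, Cdkn2b (-1.23, adjusted p = 0.0036) and Cdkn1a (-0.52, adjusted p = 0.047) fell and Cdkn1c (0.61, adjusted p = 0.038) rose in HFD against ND. Of all genes tested, 11.5% fell and 5.06% rose there. The Cdkn1a call was lost after scaling (-0.27, adjusted p = 0.20). Cdkn1b was at 25.2 to 33.1 FPKM in ND, 20.04 to 27.7 in HFD and 16.7 to 20.6 in HLJDD, and fell in HLJDD against ND by 0.52 (adjusted p = 0.048). That call too was lost after scaling (-0.36, adjusted p = 0.085).

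Markers of other cells and of gut position differed between the libraries beside these genes. Of 13 crypt stem and progenitor genes tested, 0 passed the limma test in any comparison as deposited (3 at an unadjusted p under 0.05 in HFD and 2 in HLJDD against ND, and 0 called by limma-voom). Over all genes 36.7% and 28.8% lay under that unadjusted cut. After scaling, Soat1 rose (0.73, limma adjusted p = 0.0068) and Clca3b fell (-1.35, adjusted p = 0.043) in HFD against ND. Without the 2 low libraries as well, Smoc2 also rose (0.34, adjusted p = 0.037). The summed scaled level of the list was 336 to 372 in ND, 117 to 406 in HFD and 241 to 428 in HLJDD. As deposited the sum was 370 to 418 FPKM in ND, much of it from Olfm4. Lgr5, the stem cell receptor, was at 0.720 to 1.99 FPKM in ND, 0.353 to 1.31 in HFD and 0.437 to 1.68 in HLJDD. Olfm4, an abundant crypt gene, was at 226 to 251 FPKM in ND, at 57.0, 181, 274 and 281 in HFD and at 293, 116, 338 and 234 in HLJDD, lowest in the same 2 libraries as the cell cycle genes. Myc was at 6.78 to 8.96 in ND and 2.33 to 8.59 in HFD. The villus gene Alpi rose in HFD (1.22, limma adjusted p = 0.017) and in HLJDD (1.23, adjusted p = 0.020) against ND. Of 18 villus enterocyte genes 5 rose and 0 fell in each, where 5.06% and 4.1% of all genes rose. Epcam, carried by all gut epithelium, was at 772 to 868 FPKM in ND, 396 to 655 in HFD and 408 to 790 in HLJDD. Its HFD minus ND difference was -0.58 (limma adjusted p = 0.096) as deposited and -0.34 (adjusted p = 0.082) after scaling. The summed scaled level of 12 epithelial genes was 4671 to 4838 in ND, 3976 to 5018 in HFD and 4237 to 4584 in HLJDD.

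Genes of B cells, which also divide in germinal centres, differed widely between libraries, and their part in the results was not tested. The summed scaled level of 11 B cell genes was 1.58 to 3.57 in ND, 1.78 to 322 in HFD and 5.68 to 115 in HLJDD, and 0 of 11 passed the test as deposited in either comparison with ND (all 11 at an unadjusted p under 0.05 with limma, and 0 with limma-voom). With limma, 36.7% of all genes in HFD and 28.8% in HLJDD against ND lay under that unadjusted cut. Cd79a was at 99.3, 59.3, 22.8 and 1.31 FPKM in HFD and at 46.5, 2.19, 48.7 and 39.6 in HLJDD, against 0.752 to 1.47 in ND. After scaling it rose in HFD against ND (3.70, limma adjusted p = 0.048), where 12.6% of all genes rose. Without the 2 low libraries as well it rose by 2.92 (adjusted p = 0.0499). No other B cell gene of the list passed in HFD against ND in those settings. Of 10 germinal centre genes listed, 3 were tested (Bcl6, Rgs13 and Fas). Bcl6, a factor of germinal centre B cells, was at 1.22 to 2.94 FPKM in all 11 libraries. Rgs13 fell in HFD against ND by 0.93 (limma adjusted p = 0.026) and in HLJDD against ND by 0.85 (adjusted p = 0.045). Fas fell in HLJDD against ND by 0.64 (adjusted p = 0.019), with a difference of -0.44 in HFD (adjusted p = 0.064). The summed scaled level of 9 germinal centre genes was 16.9 to 19.9 in ND, 11.6 to 16.04 in HFD and 12.2 to 16.5 in HLJDD. HFD replicate 4, with Cd79a at 1.31 FPKM, inside the ND range, had Ccnd1 at 7.39, Ccne1 at 1.84 and Mcm4 at 4.84 FPKM, under every ND library.

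Ileal genes separated the groups. Fabp6, the ileal bile acid binding protein, was at 9821, 6702 and 397 FPKM in ND and at 0.212 to 4.31 in the 8 other libraries. Of 9 distal gut genes 6 fell in HFD and 7 in HLJDD against ND, where 11.5% and 7.79% of all genes fell. The summed scaled level of the distal list was 2494 to 11639 in ND, 856 to 1436 in HFD and 670 to 1413 in HLJDD. For the proximal gut list it was 592 to 4498 in ND, 11673 to 15514 in HFD and 7858 to 15113 in HLJDD. From that list Gip, Fabp1, Onecut2 and Gata4 rose and Slc40a1 fell in HFD against ND as deposited. ND replicate 3, with the lowest Fabp6 of the ND libraries, had Ccnd1 at 24.0 and Mcm4 at 7.51 FPKM, the lowest of ND and above every HFD library. Group and the stretch of gut sampled cannot be told apart in these libraries. In whole tissue, fewer dividing cells and less RNA per dividing cell cannot be told apart either.

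**Figure D5:**
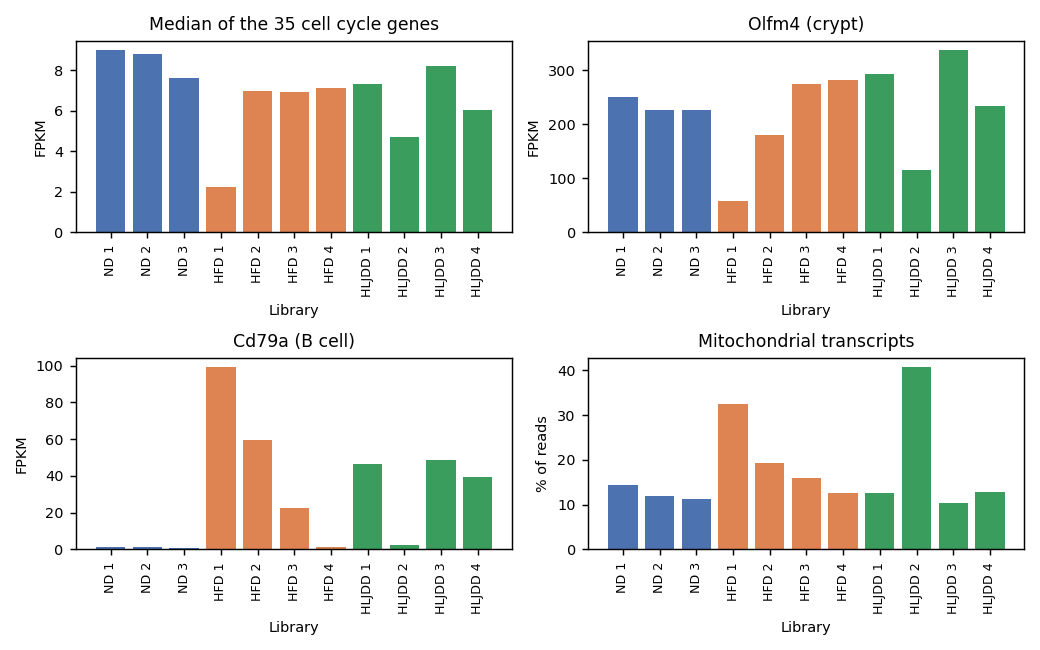
Bars give, for each of the 11 libraries (ND blue, HFD orange, HLJDD green), the median FPKM of the 35 cell cycle genes, the FPKM of Olfm4 and of Cd79a, and the mitochondrial share of reads in percent. HFD 1 has the lowest median, 2.24 FPKM, the lowest Olfm4 and the highest Cd79a; HLJDD 2 has the next lowest median, 4.70 FPKM, with Cd79a at 2.19.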

How the data were processed

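Total RNA from mouse intestine was sequenced, and the authors deposited FPKM per gene symbol for 11 libraries. Per the submitters' processing notes, fastp, HISAT2, HTSeq and R 3.2.0 were used with build mm10; the sources used here give no strand setting and no version of the other tools. FPKM divides by each library's total, so a library rich in mitochondrial transcripts gives lower values elsewhere.

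Groups came from sample titles. Genes reaching 1 FPKM in 3 or more libraries (10764, among them all 35 cell cycle genes) were tested as log2(FPKM + 1), pseudocount 1, with limma 3.58.1 in R 4.3.3 (variance trend, all 11 libraries in 1 model, 2-sided, Benjamini-Hochberg, 0.05). A difference on this scale understates the change of low genes. Single genes also had an exact 2-sided permutation test of the log2 group means (35 arrangements for 3 against 4). Depth was read from the FPKM steps: 24292 of 24294 symbols gave whole reads within 0.005 reads, and 1 FPKM in a gene of 1 kb stands for 30.1 to 37.9 reads. These reads served limma-voom as an alternative. On simulated data for HFD against ND (10764 genes), 70 of 100 genes changed by 1 and 96 of 100 changed by 2 on the log2 scale were recovered, with 10 false calls. The simulated noise was independent between genes and libraries, with no low library and no shift shared by all genes. Recovery and false calls in the real data may therefore differ.

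The genes and all other lists were chosen with earlier results of these data known. Named genes are those called in any comparison and, up to 12, those of lowest adjusted p; from the other lists, up to 3 of lowest adjusted p and a set of preset genes. Replicate numbers were shared between groups but do not pair the libraries. Other alternatives were another pseudocount, other filters, other scalings, the 2 groups compared only, a replicate block, and leaving out each library. Gene positions are RefSeq GRCm38.p6 and exon overlaps GENCODE M21. Some genes of these other lists are not reported here.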

Additional observations from a re-analysis of the deposited data

Results flagged for a closer look

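In groups of 4, a library was marked when its gap to the nearest of the others, as a share of the group's range, exceeded Dixon's 95% critical value. Of 70 groups (35 genes in HFD and in HLJDD) 18 were marked, each at its lowest library; chance marks about 1 in 20 groups, and the 35 genes are not independent of each other. In 16 of them HFD replicate 1 lay far below the other 3 HFD libraries. Its FPKM among licensing and S phase genes was 0.564 for Cdc6, 4.96 for Cdt1, 0.958 for Mcm5, 3.52 for Mcm7, 0.952 for Tyms, 3.04 for Rrm1, 1.21 for Rrm2 and 3.35 for Tk1. For the mitotic genes it was 3.29 for Ccna2, 1.61 for Ccnb1, 6.66 for Ccnb2, 2.13 for Plk1, 2.24 for Cdc20 and 0.894 for Tpx2. Of the markers, Mki67 was at 1.37 and Top2a at 2.78 there. HLJDD replicate 2 lay far below the other HLJDD libraries for Cdt1, at 5.55, and Pcna, at 48.2 FPKM.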

How the results depend on the processing

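In HFD against ND, the count of lower genes was 3 and became 8 with median-ratio scaling, 14 with equal sums without mitochondrial transcripts, 14 with HFD replicate 1 and HLJDD replicate 2 left out and 11 with that and median-ratio scaling; it ranged from 2 to 10 when 1 library was left out, and was 8 and 9 when HFD replicate 1 or HLJDD replicate 2 was left out of scaled values. Over all genes the share lower was 11.5%, and under the same settings 12.5%, 23.3%, 21.7%, 14.0%, 4.09% to 22.6%, 11.1% and 14.1%. It was 10 without HLJDD replicate 2 and 6 without HFD replicate 2, and 2 without HFD replicate 1. The count of higher genes, 0, became 1 without the 2 libraries and 2 with scaling as well. In HLJDD against ND, the count of lower genes was 2 and became 1 with a pseudocount of 0.1, 0 with no filter, 1 with a mean of at least 5 FPKM, 1 with equal sums (TPM), 1 with limma-voom on recovered reads, 7 without the 2 libraries and 8 with scaling as well; leaving out 1 library gave 0 to 8, with 5 without HFD replicate 1 as deposited and 8 on scaled values. Over all genes 7.79% were lower there. The share was 7.08% with a pseudocount of 0.1, 3.23% with no filter and 9.37% with a mean of at least 5 FPKM. It was 5.47% with equal sums (TPM) and 7.27% with limma-voom. Without the 2 libraries it was 12%, and 12.3% with scaling as well. With 1 library left out it was 2.94% to 10.8% as deposited. On scaled values it was 12.4% without HFD replicate 1 and 8.97% without HLJDD replicate 2. The count of higher genes there, 0, became 1 without the 2 libraries and 1 with scaling as well, and was 0 to 1 when 1 library was left out. HLJDD against HFD gave 0 in both directions under every alternative run. With a replicate block the lower genes were 2 in HFD against ND and 0 in HLJDD against ND, where 6.45% and 4.12% of all genes were lower. With median-ratio scaling and the replicate block they were 3 and 1, where 9.65% and 6.96% of all genes were lower. Only 3 of 10 pairs of libraries with the same number had deviations correlated above 0.1, and 2 of 11 libraries correlated best with their own number, so the numbers were not taken to pair them. Among the 12 named genes, the sign in HLJDD against HFD changed for 3, none of them called: Top2a at -0.0109 and Ccna2 at -0.0494 and Hmgb2 at -0.156 without HFD replicate 1; Ccna2 at -0.0331 and Hmgb2 at -0.136 without it on scaled values; Hmgb2 at -0.0856 without the 2 libraries; and Ccna2 at -0.009 and Hmgb2 at -0.190 with scaling as well. Leaving out 1 library, the highest values were 0.535 for Top2a, 0.506 for Ccna2 and 0.314 for Hmgb2. The causes of these shifts were not tested. The lowest count behind a named gene was 32 reads, for Ccne1 in HFD replicate 1, and the part of depth in the results was not tested.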
